A study of Mus musculus with 18 samples.

Results

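The 10 transcripts described here are Fgf4, its receptors Fgfr1 and Fgfr2, and 7 genes that fibroblast growth factor (FGF) signalling through the kinase ERK is known to induce: the phosphatases Dusp4 and Dusp6, the Sprouty inhibitors Spry2 and Spry4, the ETS transcription factors Etv4 and Etv5, and the immediate early factor Egr1. They were taken by symbol from a count table of 55487 genes, and all 10 passed the filter of at least 10 counts in every comparison. The study asked what IκBα, the NF-κB inhibitor encoded by Nfkbia, does in mouse embryonic stem cells (mESCs) as they leave pluripotency. RNA was sequenced from mESCs kept in Serum/LIF and from embryoid bodies (EBs), cell aggregates grown in suspension in differentiation medium without LIF, at 48 hr and 96 hr. All libraries derive from the mESC line ES-E14TG2a by way of single-cell-sorted clones. IκBα-KO clones (IkappBalpha-/- in the labels) received Cas9 with a pair of guide RNAs against the first exon of Nfkbia and were picked for absence of the protein, and IκBα-WT clones (IkappBalpha+/+) received Cas9 with scrambled guides. There were 3 IκBα-WT and 3 IκBα-KO mESC libraries and 6 EB libraries at each of the 2 times, each library being 1 clone, so that a genotype cannot be told apart from its 3 clones. By the labels each EB stage holds 3 libraries of either genotype. The EB columns carry codes (D4, E14, E2, E3, H7 and H9) that stand in no label and show no genotype. They are called clone codes here on the reading that 1 code is 1 clone, which no label states. EBs are therefore compared by stage only, with both genotypes mixed, and no IκBα-KO against IκBα-WT value is given for them.

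FGF4 is the main FGF ligand that mESCs themselves make. It binds FGF receptors, which signal through adaptors, RAS, RAF and MEK to ERK, and ERK activity readies mESCs to leave naïve pluripotency and steers inner cell mass cells toward primitive endoderm. ERK also induces its own brakes: DUSP6 removes phosphate from ERK in the cytoplasm, DUSP4 does so in the nucleus, and Sprouty proteins act upstream in the cascade. ETV4, ETV5 and EGR1 are transcription factors whose transcripts are used, with those of the brakes, as readouts of ERK signalling. Transcript levels of these genes were measured here, not ERK phosphorylation.

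In units of 1000000 counts (M), the total ran from 29.4 to 31.1 M per IκBα-WT mESC library, from 34.1 to 40.9 M per IκBα-KO mESC library and from 28.3 to 36.3 M per EB library. In mESCs Nfkbia fell by 1.67 ± 0.14 (SE) on the log2 scale in IκBα-KO clones (adjusted p = 0.00489). KO clone 2 stood apart from the other IκBα-KO clones. Its counts gave a chi-square per degree of freedom of 53.7 and 60.9 against KO clones 1 and 3, against 8.45 between those clones and 5.47 to 11.6 between WT clones. All mESC libraries held naïve markers, with a summed level of 2374 to 3347 CPM (counts scaled to library size) over 12 genes. Fibroblast markers summed to 8.53 to 16.0 CPM over 7 genes.

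RefSeq start sites on GRCm38.p6 gave a promoter window for 5 of the 10 members: Fgf4, Fgfr2, Dusp6, Spry2 and Etv5. The 250 bases before the start are printed for 4 of them, since 2 of these genes (Fgf4 and Dusp6) had the largest opposite changes at 96 hr among them, Spry2 did not pass the test there and Etv5 was the most abundant member. Etv5 had a second RefSeq start, whose window (chr16:22438369-22438618, -) held 1 CCAAT and 0 GC boxes and is not printed. The printed windows read 5′ to 3′ on the gene's strand, at chr7:144861136-144861385 (+) for Fgf4, chr10:99262981-99263230 (+) for Dusp6, chr14:105896820-105897069 (-) for Spry2 and chr16:22439571-22439820 (-) for Etv5. Capitals mark GGGCGG (the GC box) and CCAAT on either strand.
Fgf4: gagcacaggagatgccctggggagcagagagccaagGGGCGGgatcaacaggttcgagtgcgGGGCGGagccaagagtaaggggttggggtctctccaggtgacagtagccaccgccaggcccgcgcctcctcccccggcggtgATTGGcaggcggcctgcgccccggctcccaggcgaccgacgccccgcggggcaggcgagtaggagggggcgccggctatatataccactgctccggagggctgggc
Dusp6: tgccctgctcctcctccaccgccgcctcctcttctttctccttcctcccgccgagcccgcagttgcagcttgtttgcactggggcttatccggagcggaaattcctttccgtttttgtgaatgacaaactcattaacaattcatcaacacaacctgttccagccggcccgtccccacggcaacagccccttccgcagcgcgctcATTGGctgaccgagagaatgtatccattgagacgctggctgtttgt
Spry2: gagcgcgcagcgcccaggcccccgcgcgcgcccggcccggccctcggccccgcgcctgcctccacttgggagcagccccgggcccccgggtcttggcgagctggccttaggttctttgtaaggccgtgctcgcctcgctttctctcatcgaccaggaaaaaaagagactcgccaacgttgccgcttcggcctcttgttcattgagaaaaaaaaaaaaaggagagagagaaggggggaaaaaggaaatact
Etv5: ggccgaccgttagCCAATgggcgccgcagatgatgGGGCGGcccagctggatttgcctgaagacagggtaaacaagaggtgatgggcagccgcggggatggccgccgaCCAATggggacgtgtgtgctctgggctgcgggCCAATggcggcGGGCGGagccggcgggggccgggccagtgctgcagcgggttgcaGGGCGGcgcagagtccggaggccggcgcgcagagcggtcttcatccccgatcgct
The Fgf4 window held 2 GC boxes and 1 CCAAT, the printed Etv5 window 3 of each, the Dusp6 window 1 CCAAT, and the Spry2 window neither, with no overlap between matches. Of all 32851 RefSeq windows of this length, 32.7% held a GC box and 33.8% a CCAAT. The letters CCGGAA, used here for an ETS motif and found in 12.03% of windows on either strand, were in none of the 4 printed windows. Neither was TATAAA, found in 12.4%. Shorter or variant forms of both were not searched. A match is a description of these letters and not a measured site.

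In GRCm38 the members lie at chr7:144847367-144865243 (Fgf4), chr8:25513654-25575718 (Fgfr1), chr7:130162451-133123350 (Fgfr2), chr8:34807297-34819894 (Dusp4), chr10:99263231-99267489 (Dusp6), chr14:105891947-105896819 (Spry2), chr18:38586247-38601415 (Spry4), chr11:101769742-101785371 (Etv4), chr16:22381309-22439719 (Etv5) and chr18:34859823-34864984 (Egr1). Fgfr1 shares 164 exonic bases with the antisense gene Gm16159, and Fgfr2 shares 314 with Ctbp2 on the same strand. Reads in these bases could be left out or counted for either gene. The counting options that decide this are not given in the sources used here.

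Levels are given in CPM, the count per 1000000 counts of a library size adjusted by TMM over the 18 libraries, and between genes as CPM per kilobase of exon. In IκBα-WT mESCs Etv5 was the most abundant member per length, at a median of 136 CPM per kb, followed by Fgf4 at 59.1 and Spry2 at 39.0, and these 3 did not overlap. Spry4 (27.1), Etv4 (23.8), Egr1 (21.2) and Dusp6 (14.8 CPM per kb) each overlapped its neighbour in this order. Fgfr1 (11.8), Dusp4 (7.20) and Fgfr2 (2.82 CPM per kb) closed the order without overlap. In 96 hr EBs Etv5 still led at 103 CPM per kb, but Dusp6 (35.01), Spry2 (33.1) and Dusp4 (25.03) came next, and Fgf4 (18.2 CPM per kb) stood sixth. The ranges of all neighbours in the first 8 places of that order overlapped.

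**Figure D1:**
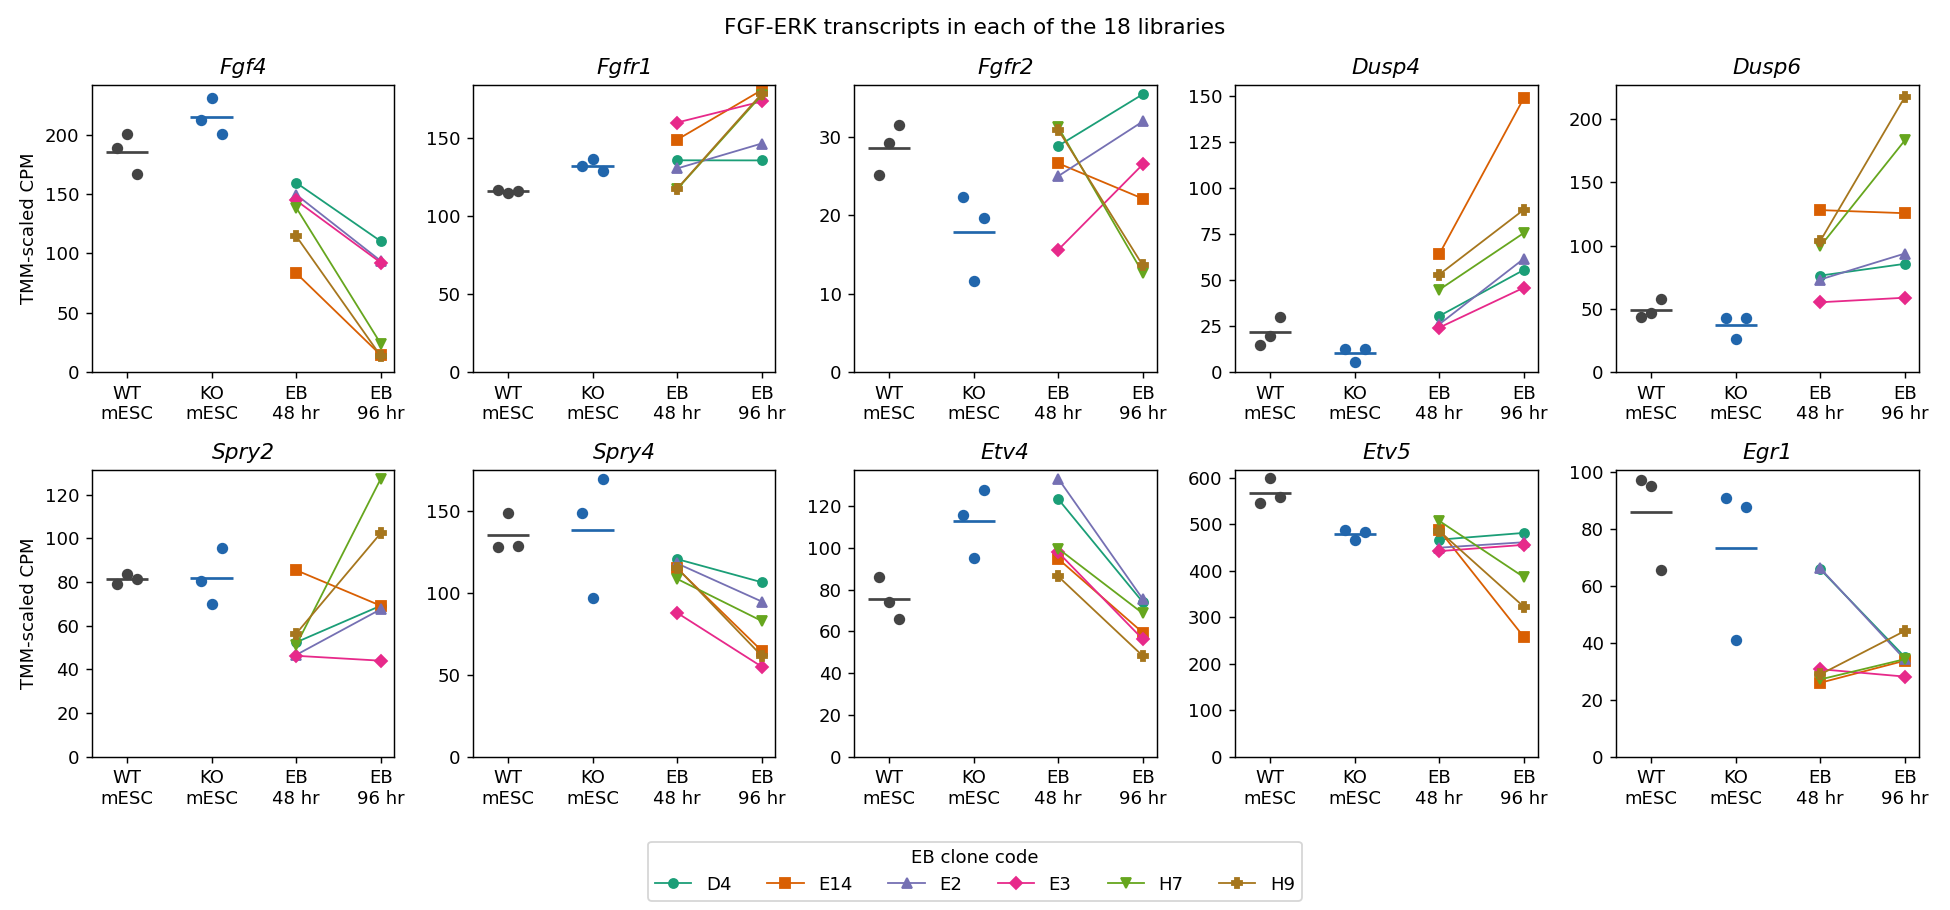
Level of each FGF-ERK transcript (TMM-scaled CPM, linear axis from 0) in the 18 libraries. Dots are mESC clones with a bar at the mean of 3, and lines join the 48 hr and 96 hr EB libraries of 1 clone code. Fgf4 was lower in all 6 EB libraries of each stage than in any mESC library, while at 96 hr Dusp4 and Dusp6 were above every mESC library.

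In mESCs the loss of IκBα was compared with the wild type to ask which FGF-ERK transcripts differ before differentiation starts. Called means past an adjusted p of 0.05 by the quasi-likelihood test of edgeR, with the adjustment made over 21843 genes. Only Etv4 was called of the 10 members, and it was higher in IκBα-KO clones. Over all genes 4.79% were called, 3.09% as higher and 1.69% as lower. No call among the members (0 of 10) had an absolute log2 fold change over 1, against 1.7% of all genes. An unadjusted p under 0.05 was found for 6 of 10 members and 21.6% of all genes. In 7 of 10 the 3 IκBα-KO clones did not overlap the 3 IκBα-WT clones (3 higher, 4 lower), against 28.9% of all genes (15.4% higher, 13.5% lower), with no test of that difference. The median log2 fold change was -0.12 over the members and 0.01 over all genes. An exact two-sided permutation test of the mean log2 CPM gave p = 0.1 for each of those 7 genes, which is the smallest value 3 against 3 clones allow.

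Fgf4, the ligand, was at 189, 201 and 167 CPM in WT clones 1 to 3 and at 213, 231 and 201 CPM in KO clones 1 to 3. Each KO clone lay above each WT clone, KO clone 3 only just, and the log2 fold change of 0.20 ± 0.09 was not called (adjusted p = 0.221). Fgfr1, the main FGF receptor of the epiblast, was at 117, 115 and 116 CPM in WT clones and at 132, 136 and 129 CPM in KO clones. Its clones were tight and did not overlap, with a log2 fold change of 0.18 ± 0.06 (adjusted p = 0.132). Fgfr1 lies on chromosome 8, whose genes had a median log2 difference from the WT mean of 0.48, 0.26 and 0.43 in KO clones 1 to 3. In the 10 Mb window that holds Fgfr1 the medians were 0.12, 0.24 and 0.08, and with the chromosome median taken out the log2 fold change of Fgfr1 turned to -0.20.

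Fgfr2, a receptor enriched in primitive endoderm, was at 25.2, 29.2 and 31.5 CPM in WT clones and at 22.4, 11.6 and 19.6 CPM in KO clones. No KO clone reached the lowest WT clone, and KO clone 2 was farthest from it. The log2 fold change was -0.69 ± 0.22 (adjusted p = 0.122), and -0.45 without KO clone 2, where it was called (adjusted p = 0.0122).

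Dusp4, the nuclear phosphatase, was at 14.9, 19.7 and 29.8 CPM in WT clones and at 12.5, 5.29 and 12.7 CPM in KO clones. The groups did not overlap, but the WT clones themselves spread widely. The log2 fold change of -1.08 ± 0.36 was the largest of the 10 in size and was not called (adjusted p = 0.125). Dusp6, the cytoplasmic ERK phosphatase, was at 43.7, 46.5 and 57.4 CPM in WT clones and at 42.9, 25.8 and 42.6 CPM in KO clones. KO clones 1 and 3 lay just under the lowest WT clone. Its log2 fold change of -0.41 ± 0.20 (adjusted p = 0.270) became -0.21 without KO clone 2.

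Spry2 was at 78.9, 83.7 and 81.3 CPM in WT clones and at 80.4, 69.7 and 95.8 CPM in KO clones, and Spry4 at 128, 149 and 129 CPM in WT clones and at 149, 97.1 and 169.8 CPM in KO clones. For both Sprouty genes the KO clones spread to either side of the WT clones, KO clone 2 being lowest and KO clone 3 highest. The log2 fold changes were 0.003 ± 0.11 for Spry2 (adjusted p = 0.992) and 0.03 ± 0.18 for Spry4 (adjusted p = 0.951).

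Etv4 was at 86.3, 73.9 and 66.002 CPM in WT clones and at 116, 94.9 and 128 CPM in KO clones. The lowest KO clone was again clone 2 and was above every WT clone. The log2 fold change of 0.57 ± 0.13 was called (adjusted p = 0.0474). The call was kept without KO clone 2 (0.68, adjusted p = 0.00185) and was lost without any one of the other 5 clones (adjusted p up to 0.208) and with an offset for the 10 Mb window (0.54, adjusted p = 0.0599). Etv5, the close relative of Etv4, went the other way. It was at 546, 599.9 and 557 CPM in WT clones and at 488, 467 and 482 CPM in KO clones. The groups did not overlap and the log2 fold change of -0.25 ± 0.06 just missed the call (adjusted p = 0.0592). It was called without KO clone 2 (adjusted p = 0.0109) and with an offset for the 10 Mb window (-0.28, adjusted p = 0.0297). Egr1 was at 97.2, 94.9 and 65.5 CPM in WT clones and at 90.9, 40.8 and 87.5 CPM in KO clones. The groups overlapped, and the log2 fold change of -0.24 ± 0.29 (adjusted p = 0.683) became 0.05 without KO clone 2.

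**Figure D2:**
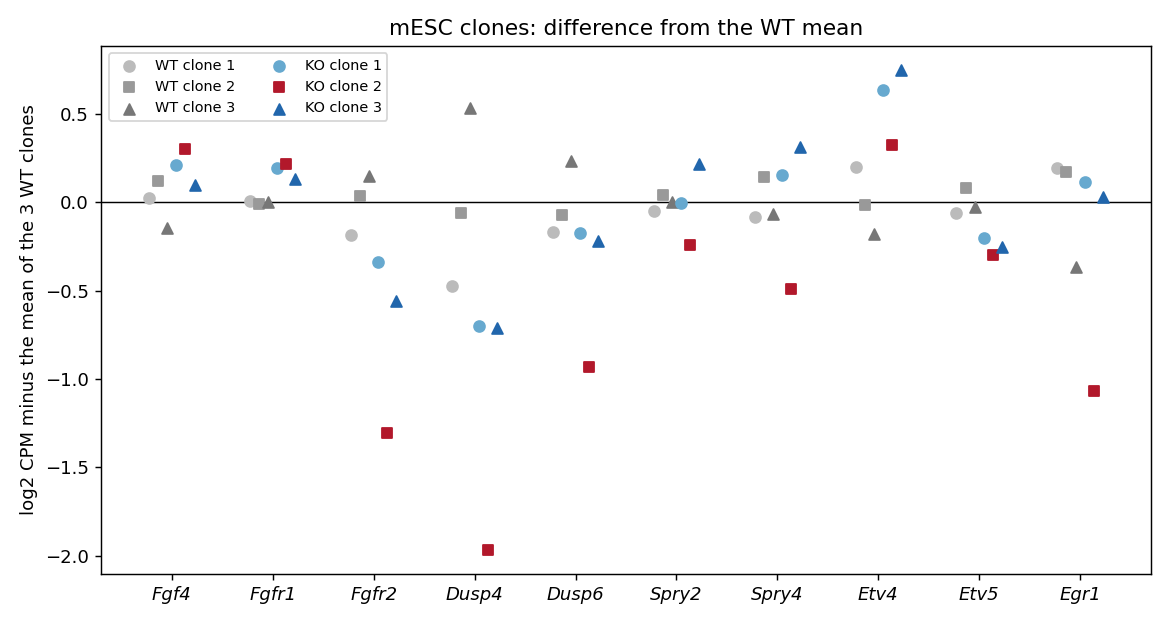
Log2 CPM of each member in each mESC clone minus the mean of the 3 IκBα-WT clones (linear axis in log2 units); grey symbols are WT clones and coloured symbols KO clones. KO clone 2 was the lowest of the 6 clones in 7 of the 10 members, reaching -1.97 for Dusp4 and -1.31 for Fgfr2.

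KO clone 2 was the lowest of the 6 mESC clones in 7 members: Fgfr2, Dusp4, Dusp6, Spry2, Spry4, Etv5 and Egr1. In it Egr1 lay 1.07 below the WT mean on the log2 scale and Dusp6 0.93 below, while in KO clones 1 and 3 Egr1 was at 0.12 and 0.03 and Dusp6 at -0.17 and -0.22. Primitive endoderm markers also set KO clone 2 apart. Over 9 markers, none at 0 in a group and none called between genotypes, the summed level was 550.4 and 670.0 CPM in KO clones 1 and 3, 142 CPM in KO clone 2 and 213 to 236 CPM in WT clones. The value of KO clone 2 was under those of the WT clones through Lamb1, a laminin gene at 88.5 CPM in KO clone 2 and 165 to 183 CPM in WT clones. The other 8 markers, summed after the values were seen, came to 53.7 CPM in KO clone 2, 41.2 to 52.6 CPM in WT clones, and 290.0 and 399 CPM in KO clones 1 and 3. The part of these markers in the FGF-ERK values was not tested. Leaving out KO clone 2 raised the members called from 1 to 4 (Etv4 higher, Fgfr1 higher, Fgfr2 lower, Etv5 lower) and all genes called to 3736. Leaving out WT clone 2 left 0 genes called by edgeR, with 3104 at an unadjusted p under 0.05.

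EBs at 48 hr and 96 hr were set against mESCs, 6 libraries a stage, to ask how the pathway's transcripts change in differentiation medium. Each value is an average over both genotypes. The study reports that IκBα-KO EBs differentiate poorly, so a stage value need not hold for either genotype. Both comparisons share the mESC libraries, and 1 fit with stage as its only term shared its spread over the 18 libraries. Clones may recur between stages, and this fit treated the 18 libraries as separate. EBs mix cell types, so that fewer cells of a type and less RNA per cell cannot be told apart. At 48 hr, 3 of 10 members were called (Dusp4 and Dusp6 higher, Egr1 lower), close to the 27.9% of all genes called (14.9% higher, 13% lower). With an absolute log2 fold change over 1 as well there were 2 members against 9.57% of genes, and by an unadjusted p under 0.05 there were 4 against 38.2%. At 96 hr, 8 of 10 were called, against 43% of all genes. Dusp4, Dusp6 and Fgfr1 rose (22.7% of genes higher), and Fgf4, Spry4, Etv4, Etv5 and Egr1 fell (20.3% lower). Of these, 4 had an absolute log2 fold change over 1, against 20.8% of genes, and 8 members had an unadjusted p under 0.05, against 50.4%. The members' median log2 fold change was 0.01 at 48 hr and -0.23 at 96 hr, against 0.004 and -0.01 over all genes. At 48 hr the groups did not overlap for 1 member, which was lower, against 16.7% of genes (8.12% higher, 8.58% lower). At 96 hr they did not overlap for 3 members, 2 higher and 1 lower, against 23% of genes (11.8% higher, 11.1% lower). All 8 calls at 96 hr and all 3 at 48 hr were kept when any one library was left out.

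Fgf4 ran from 167 to 231 CPM in mESCs (median 201), from 83.4 to 159.7 CPM in 48 hr EBs (median 142) and from 13.5 to 110.3 CPM in 96 hr EBs (median 58.1). Every EB library was below every mESC library at both times. The log2 fold change was -0.58 ± 0.42 at 48 hr, not called (adjusted p = 0.331), and -1.81 ± 0.43 at 96 hr (adjusted p = 0.00238). At 96 hr the libraries fell far apart, with 3 at 13.5 to 23.8 CPM and 3 at 92.3 to 110.3 CPM.

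Fgfr1 ran from 115 to 136 CPM in mESCs, from 117 to 159.9 CPM at 48 hr and from 136 to 181 CPM at 96 hr, with medians of 123, 133 and 175 CPM. Of the 96 hr libraries, 5 were above every mESC library, and Fgfr1 rose by 0.40 ± 0.09 on the log2 scale (adjusted p = 0.00142). Fgfr2 spanned 11.6 to 31.5 CPM in mESCs, 15.6 to 31.2 CPM at 48 hr and 12.6 to 35.4 CPM at 96 hr. Its ranges covered each other, and the log2 fold changes were 0.20 ± 0.26 at 48 hr (adjusted p = 0.618) and 0.02 ± 0.26 at 96 hr (adjusted p = 0.971).

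Dusp4 ran from 5.29 to 29.8 CPM in mESCs (median 13.8), from 24.1 to 64.0 CPM at 48 hr (median 37.5) and from 45.8 to 149 CPM at 96 hr (median 68.6). All 96 hr libraries and 4 of 6 at 48 hr were above every mESC library. It rose by 1.37 ± 0.37 at 48 hr (adjusted p = 0.00847) and by 2.32 ± 0.37 at 96 hr (adjusted p = 8.14e-05), the largest increase among the members. Dusp6 ran from 25.8 to 57.4 CPM in mESCs (median 43.3), from 55.1 to 128 CPM at 48 hr (median 87.8) and from 58.7 to 218 CPM at 96 hr (median 109.7). At 48 hr 5 of 6 libraries, and at 96 hr all 6, were above every mESC library. The log2 fold changes were 1.07 ± 0.28 (adjusted p = 0.00798) and 1.56 ± 0.29 (adjusted p = 0.000269).

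Of the Sprouty genes Spry4 fell at 96 hr, and Spry2 was called at neither time. Spry2 ran from 69.7 to 95.8 CPM in mESCs (median 80.8), from 46.2 to 85.4 CPM at 48 hr (median 51.7) and from 44.0 to 127 CPM at 96 hr (median 69.1). At 48 hr 5 of 6 libraries were below every mESC library, yet the log2 fold change of -0.51 ± 0.20 was not called (adjusted p = 0.0693). It was called by the DESeq2 Wald test (adjusted p = 0.0376) and with the filterByExpr filter (adjusted p = 0.0472), and without the 48 hr E14, 96 hr E3 or 96 hr H7 library (adjusted p down to 0.0162). At 96 hr 4 libraries were below and 2 above every mESC library, with a log2 fold change of -0.04 ± 0.20 (adjusted p = 0.900). Spry4 ran from 97.1 to 169.8 CPM in mESCs (median 139), from 88.0 to 121 CPM at 48 hr (median 115) and from 55.1 to 107 CPM at 96 hr (median 73.9). Its log2 fold change was -0.28 ± 0.15 at 48 hr (adjusted p = 0.192), and at 96 hr Spry4 fell by 0.83 ± 0.15 on the log2 scale (adjusted p = 0.000296).

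Etv4 ran from 66.002 to 128 CPM in mESCs (median 90.6), from 86.3 to 133 CPM at 48 hr (median 98.7) and from 48.3 to 75.5 CPM at 96 hr (median 64.0). Its 48 hr and 96 hr libraries did not overlap. The log2 fold changes against mESCs were 0.19 ± 0.15 (adjusted p = 0.390) and -0.57 ± 0.16 (adjusted p = 0.00604). Etv5 ran from 467 to 599.9 CPM in mESCs (median 517), from 442 to 507 CPM at 48 hr (median 476) and from 258 to 481 CPM at 96 hr (median 421). At 96 hr 5 of 6 libraries were below every mESC library, and the log2 fold change was -0.13 ± 0.12 at 48 hr (adjusted p = 0.465) and -0.42 ± 0.12 at 96 hr (adjusted p = 0.00645). Egr1 ran from 40.8 to 97.2 CPM in mESCs (median 89.2), from 25.9 to 66.1 CPM at 48 hr (median 29.8) and from 28.1 to 44.2 CPM at 96 hr (median 34.2). It fell by 0.94 ± 0.26 at 48 hr (adjusted p = 0.0107) and by 1.19 ± 0.26 at 96 hr (adjusted p = 0.00119). At 96 hr 5 of 6 libraries were below every mESC library, and KO clone 2 was the mESC library that the highest of them passed.

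Naïve markers moved with the stages: 9 of 12 fell at 48 hr and 11 at 96 hr, and their sum was 428 to 1315 CPM at 48 hr and 295 to 807 CPM at 96 hr. Of 10 primed epiblast and primitive streak markers, 4 rose at 48 hr and 10 at 96 hr. Over all genes 13% were lower and 14.9% higher at 48 hr, and 20.3% lower and 22.7% higher at 96 hr. The part of a changing cell make-up in the members' values was not tested.

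**Figure D3:**
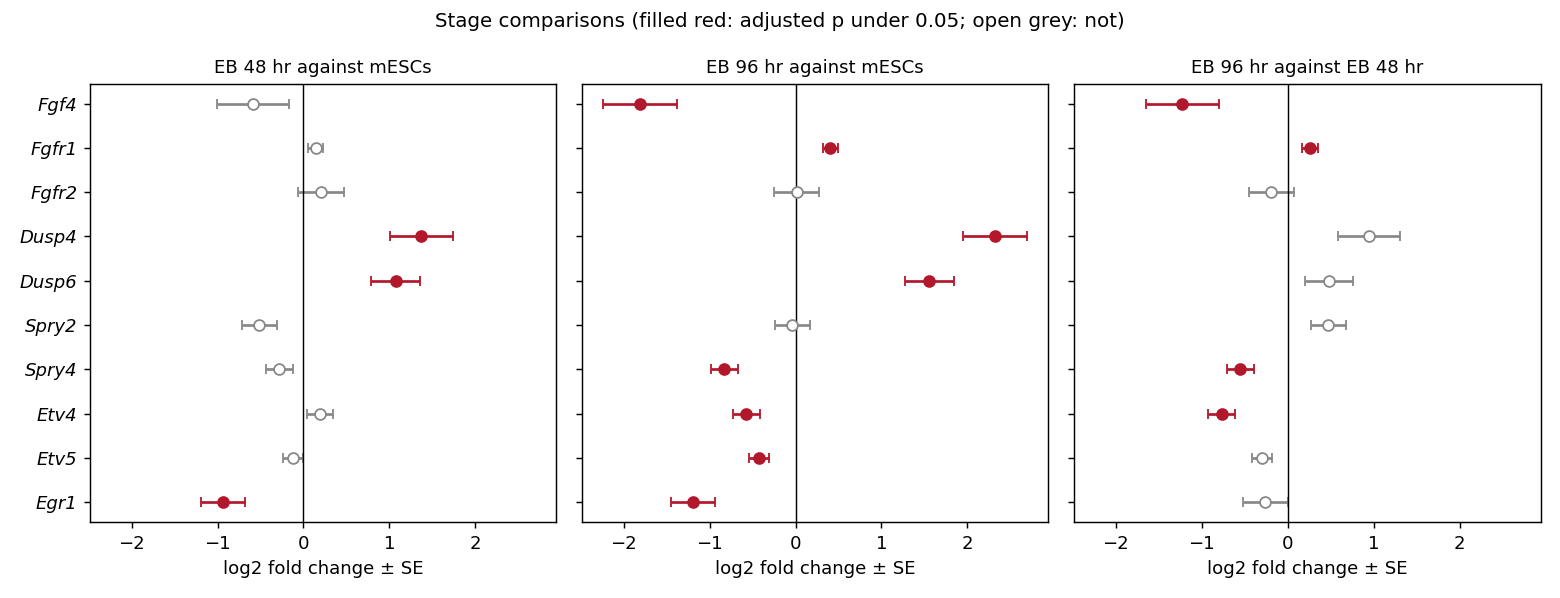
Log2 fold change of each member (points, with the standard error as a bar) in the 3 comparisons of stages, 6 libraries a stage; filled red points have an adjusted p under 0.05. Dusp4 (2.32) and Dusp6 (1.56) lay to the right at 96 hr and Fgf4 (-1.81) and Egr1 (-1.19) to the left.

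Between 48 hr and 96 hr the 6 clone codes recur, so the change was also read within each code. The members called were 4 of 10 in the fit by stage, against 27.7% of all genes (13.9% higher, 13.8% lower), and 5 in the EB libraries alone with the code as a block. With an absolute log2 fold change over 1 as well there was 1 member against 11.9% of genes, and by an unadjusted p under 0.05 there were 7 against 39.8%. Etv4 was lower at 96 hr in all 6 codes, by 0.54 to 0.84 on the log2 scale, and fell by 0.77 ± 0.16 (adjusted p = 0.0018). It was the member whose 48 hr and 96 hr libraries did not overlap, against 8.68% of all genes (5% higher, 3.68% lower). Spry4 was also lower in all 6 codes, by 0.18 to 0.90, and fell by 0.55 ± 0.15 (adjusted p = 0.0134). Fgf4 was lower in all 6 codes as well, but by unequal steps. Its log2 difference was -0.53, -0.68 and -0.65 in D4, E2 and E3, and -2.55, -2.54 and -3.08 in E14, H7 and H9. The log2 fold change of -1.22 ± 0.42 was called (adjusted p = 0.0384). The call was lost in 10 of 18 fits that left out 1 library (WT clone 2, KO clone 1, the 48 hr libraries of every code but E14, or the 96 hr libraries of E14, H7 and H9), with an adjusted p of up to 0.0800, and kept with the code block (-1.65, adjusted p = 0.0188).

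Dusp4 was higher at 96 hr in all 6 codes, by 0.74 to 1.25 on the log2 scale. Its log2 fold change of 0.95 ± 0.36 was not called in the fit by stage (adjusted p = 0.0569) and was called in the EB libraries alone, both with the code block (0.96, adjusted p = 0.000126) and without it (0.98, adjusted p = 0.0416). It was also called by the DESeq2 Wald test (adjusted p = 0.0271), with the filterByExpr filter (adjusted p = 0.0403) and in 6 of 18 fits that left out 1 library. Fgfr1 was higher in 5 of 6 codes, with D4 at -0.00082, and rose by 0.26 ± 0.09 (adjusted p = 0.0374). This call was lost in 6 of 18 fits that left out 1 library (the 48 hr libraries of E2, H7 and H9, or the 96 hr libraries of E14, H7 and H9), with an adjusted p of up to 0.0839. For the other 5 members neither fit gave a call, though leaving out 1 library gave one for Etv5 (96 hr D4, E2 or E3) and Spry2 (48 hr E14 or 96 hr E3). Dusp6 was higher in 5 of 6 codes, from -0.03 in E14 to 1.07 in H9, with a log2 fold change of 0.49 ± 0.28 (adjusted p = 0.206). Spry2 ran from -0.30 in E14 to 1.32 in H7, and Fgfr2 from -1.30 in H7 to 0.76 in E3. Etv5 differed by 0.04 in D4, E2 and E3 and by -0.92, -0.39 and -0.59 in E14, H7 and H9. Egr1 was lower by 0.91 and 0.95 in D4 and E2, and its difference was -0.13 to 0.61 in the other 4 codes.

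The rest of the pathway was read from lists of 21 other FGF genes, 8 other receptors and co-receptors, 20 adaptors and cascade kinases, 16 other negative regulators and 16 other ERK-responsive transcripts. In IκBα-KO against IκBα-WT mESCs the calls in each list stand against 4.79% of all genes called (3.09% higher, 1.69% lower). They ran from 0 of 16 negative regulators to 2 higher and 2 lower of 16 ERK-responsive transcripts. The lists were not tested as sets. Of 18 other FGF genes tested (Fgf6, Fgf9 and Fgf16 were not), Fgf3 rose by 1.27 ± 0.26 (adjusted p = 0.0346), while Fgf5, a marker of the primed epiblast, fell by 4.44 ± 0.57 (adjusted p = 0.00832) and Fgf15 fell by 1.05 ± 0.17 (adjusted p = 0.0151). Fgf5 was at 1.82, 2.51 and 5.67 CPM in WT clones and at 0.06, 0.22 and 0.17 CPM in KO clones. Of 8 receptors only the co-receptor Klb was called, at 0.93, 0.65 and 0.39 CPM in WT clones and 3.52, 1.64 and 5.14 CPM in KO clones, with KO clone 2 again the lowest KO clone. Of 20 cascade genes the scaffold Ksr1 rose by 0.56 ± 0.12 and Nras fell by 0.33 ± 0.06. None of the 16 negative regulators was called by edgeR. Of the 16 ERK-responsive transcripts Elk3 and Ier2 rose (1.33 and 0.50 on the log2 scale) while the cyclin gene Ccnd1 fell by 0.40 and Mcl1 fell by 0.29. Each of these calls was lost without WT clone 2, where no gene of any list was called. Fgf5 kept its call in 5 of 6 fits that left out 1 clone, and Fgf15 in 4. Fgf3, Klb, Ksr1, Nras, Elk3, Ier2, Ccnd1 and Mcl1 kept theirs in only 1 of 6, the fit without KO clone 2.

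In EBs the other negative regulators went one way among those called: 7 of 16 rose and 0 fell at 48 hr, and 10 rose and 0 fell at 96 hr. Over all genes 14.9% were higher and 13% lower at 48 hr, and 22.7% higher and 20.3% lower at 96 hr. The median log2 fold change of the 16 was 0.61 at 48 hr and 0.90 at 96 hr, against 0.004 and -0.01 over all genes. At 96 hr the largest increases were those of the phosphatase Dusp2 (2.37 ± 0.45, adjusted p = 0.000377), the FGF receptor antagonist Il17rd (1.71 ± 0.33, adjusted p = 0.000445) and Dusp7 (1.42 ± 0.13, adjusted p = 1.76e-07). The rises of Dusp2 and Il17rd were uneven between libraries. Dusp2 was at 12.3 CPM in E14 and 1.62 to 3.92 CPM in the other codes, against 0.50 to 1.21 CPM in mESCs. Il17rd was at 96.8, 81.0 and 53.2 CPM in D4, E2 and E3 and at 199, 258 and 268 CPM in E14, H7 and H9. In mESCs Il17rd ran from 40.9 to 55.6 CPM. Dusp7 already rose by 1.05 ± 0.13 at 48 hr (adjusted p = 7.71e-06). Between 48 hr and 96 hr 5 rose and 2 fell, against 13.9% of all genes higher and 13.8% lower. Dusp9 fell by 1.19 ± 0.29 (adjusted p = 0.00607). The call of Dusp2 (1.39) was lost without the 96 hr E14 library (0.68, adjusted p = 0.0904) or the 48 hr E2 library.

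Several other FGF genes rose in EBs. Of 21 tested, 4 rose and 1 fell at 48 hr, and 10 rose and 4 fell at 96 hr. The 48 hr counts are near the shares of all genes called in each direction (14.9% higher, 13% lower), and those of 96 hr stand against 22.7% and 20.3%. Fgf8, expressed in the primitive streak, went from 0.26 to 0.59 CPM in mESCs to 1.87 to 15.0 CPM at 48 hr and 4.72 to 90.6 CPM at 96 hr, without overlap with mESCs (log2 fold change 6.64 ± 0.90 at 96 hr, adjusted p = 1.47e-05). Fgf5 rose by 3.86 ± 0.89 at 48 hr (adjusted p = 0.00299) and by 5.23 ± 0.93 at 96 hr (adjusted p = 0.000208). Of the 10 that rose at 96 hr, Fgf11, Fgf13 and Fgf14 (named after their values were seen; 1.79, 0.93 and 3.23 on the log2 scale) are intracellular FGF homologous factors and not secreted ligands. Without the 96 hr E14 library the calls of 3 of the 10 were lost: Fgf10 went from 2.98 to 1.11 (adjusted p = 0.233), Fgf3 turned from 2.68 to -0.36 (adjusted p = 0.614), and Fgf15, at 0.92, lost its call as well. Fgf17 fell by 1.85 ± 0.49 at 48 hr and fell by 1.60 ± 0.48 at 96 hr. Of 8 receptors and co-receptors, Fgfrl1, a receptor without a kinase domain, rose by 0.44 ± 0.14 at 48 hr (adjusted p = 0.0249) and by 0.88 ± 0.14 at 96 hr (adjusted p = 6.81e-05). The 48 hr call was lost without any one of the 3 WT clones or the 48 hr libraries of H7 and H9 (adjusted p up to 0.0642).

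Among the adaptors and cascade kinases 9 of 20 rose and 3 fell at 48 hr, and 8 rose and 3 fell at 96 hr. Over all genes, for this and the next lists, 14.9% were higher and 13% lower at 48 hr, and 22.7% and 20.3% at 96 hr. The adaptor Shc1 rose by 0.77 ± 0.11 at 48 hr and by 1.00 ± 0.11 at 96 hr, and Mapk3, which encodes ERK1, by 0.80 ± 0.09 at 96 hr. The adaptor Grb2 fell by 0.49 ± 0.06 at 48 hr and fell by 0.62 ± 0.06 at 96 hr. The summed level of the 20 genes stayed between 2270 and 2930 CPM in all 18 libraries. The other ERK-responsive transcripts split: 5 rose and 4 fell at 48 hr, and 5 rose and 1 fell at 96 hr. At 48 hr the immediate early genes Junb and Fos fell by 2.12 ± 0.24 and 1.91 ± 0.28 (adjusted p = 4e-06 and 4.35e-05), in the same direction as Egr1, while Srf rose by 0.84 ± 0.10 (adjusted p = 5.15e-06). Between 48 hr and 96 hr Fos and Junb rose by 2.20 ± 0.28 and 1.90 ± 0.24 (adjusted p = 4.54e-05 and 4.78e-05), with Egr1 at -0.26 ± 0.26 (adjusted p = 0.485). Of 15 immediate early and dissociation stress genes, 3 rose and 4 fell at 48 hr, and 6 rose and 1 fell at 96 hr against mESCs. Between 48 hr and 96 hr 8 rose and 0 fell (median log2 fold change 0.98), against 13.9% of all genes higher and 13.8% lower. The sum of the 15 was 207 to 262 CPM in mESCs, 159.6 to 268 CPM at 48 hr and 271 to 326 CPM at 96 hr. The part of cell handling in the values of Egr1 was not tested.

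**Figure D4:**
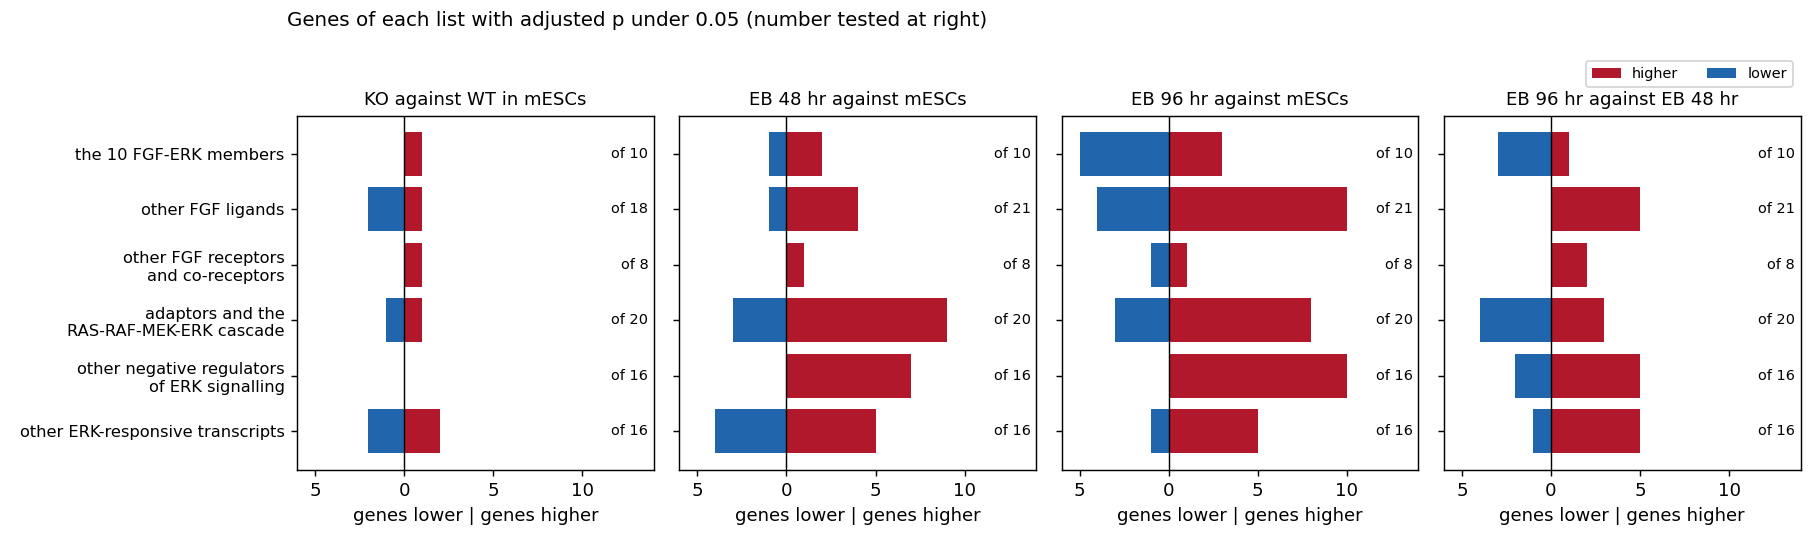
Number of genes of each list with an adjusted p under 0.05 that were higher (red, to the right) or lower (blue, to the left) in the 4 comparisons; the number tested stands at the right of each bar. At 96 hr against mESCs 10 of 16 other negative regulators were higher and 0 lower, while 3 of the 10 members were higher and 5 lower.

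Genes with the pattern most like that of 3 members were taken from the correlation of log2 CPM over the 18 libraries, each stage centred on its mean. The points share their libraries, and the 96 hr EBs spread most. For Fgf4 these were EU599041, Stk10 and Gm17768 (Pearson r of 0.99, 0.98 and 0.98), and r was 0.80, 0.94 and 0.92 over the 12 libraries without the 96 hr EBs. For Dusp6 they were Adgrl2, Nrcam and Chmp2b (r of 0.96, 0.96 and 0.96, and 0.97, 0.94 and 0.93 without the 96 hr EBs). For Spry4 they were Ipo8, Setd1a and Gm40849 (0.94, 0.92 and 0.92, and 0.89, 0.92 and 0.85).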

How the data were processed

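Per the submitters' processing notes, the authors used Trim Galore 0.6.6, STAR 2.7.8 on GRCm38 (mm10) and featureCounts of Subread 2.0.1 on exons, and deposited raw counts, whole numbers with no normalization, over 55487 genes; the strand setting is not given in the sources used here. The authors also deposited log2 values on the variance-stabilized scale of DESeq2 (1.38.3 in their notes), which were not used. From the deposited counts, genes reaching 10 counts summed over a fit's libraries were tested with edgeR 4.0.16 in R 4.3.3 (TMM, robust quasi-likelihood test, Benjamini-Hochberg over all genes tested); a standard error is the absolute log2 fold change over the root of F. Log2 CPM used a prior count of 2. Levels were scaled over all 18 libraries. The scripts were tested on simulated data, with changes placed only in genes averaging 50 counts or more. Libraries were drawn independently, so no simulated clone was set apart from the others as KO clone 2 was. For IκBα-KO against IκBα-WT, 81 of 100 changes of 1 on the log2 scale and 99 of 100 of 2 were recovered, with 19 false calls. For 48 hr EBs against mESCs, 66 and 96 of 100 were recovered, with 6 false calls. EB clone codes were taken to pair 48 hr with 96 hr libraries, which no label states. Correlations of deviations were 0.396 to 0.734 within each of 6 codes. The 48 hr E14 library was closest to H7 at 96 hr, the other 5 to their own code. The study names 3 independent clones of each genotype for all its stages, so mESC and EB libraries may come from the same clones. The main stage fit treated the 18 libraries as separate, with no term for clone or genotype. Its p-values cover the spread between libraries. In mESCs p-values cover the spread between the 3 clones of each genotype. The members and lists were chosen with earlier results of these data known. Named genes are the 10 members, Nfkbia, of each list up to 3 genes per direction with the largest absolute log2 fold change among called genes averaging 50 counts or more, and the 3 genes most like Fgf4, Dusp6 and Spry4; exceptions are marked, and 1 gene that the rule names is not reported here. Alternatives were DESeq2 1.42.0 size factors and its Wald test, filters of at least 1 count and filterByExpr, the replicate block, the clone code block, both mESC genotypes as groups of their own, offsets for 10 Mb windows or chromosomes, and each library left out.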

Additional observations from a re-analysis of the deposited data

Results flagged for a closer look

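Among 20 sets of 6 EB libraries (10 members at 2 times), 3 held a library whose gap to its nearest neighbour, as a share of the whole range, passed Dixon's critical value of 0.625, where chance flags about 5% of such sets. All 3 were at 48 hr. Fgfr2 was lowest in code E3 (log2 CPM 3.97, next 4.65, share 0.679). Spry4 was also lowest in code E3 (6.46, next 6.77, share 0.667). Spry2 was highest in code E14 (6.42, next 5.82, share 0.677).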

How the results depend on the processing

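The 8 calls at 96 hr against mESCs and the 3 at 48 hr held in every alternative run. The IκBα-KO against IκBα-WT values depended most on the settings. With 1046 genes called (372 with an absolute log2 fold change over 1) and 1 member, the DESeq2 Wald test gave 2146 (570) and 4 members, adding Fgfr2, Dusp4 and Etv5. The filterByExpr filter gave 2 members, adding Etv5. With the 10 Mb window offset Etv5 was called (adjusted p = 0.0297) and Etv4 was not (adjusted p = 0.0599). Leaving out 1 clone gave 0 to 3736 genes (0 to 872 over the fold limit) and 0 to 4 members. The replicate numbers of the mESC clones share only a number (correlations of deviations -0.12, -0.0078 and -0.03), and the replicate block gave 631 genes and 0 members (Etv4 0.57, adjusted p = 0.0545); the cause of the lost call was not tested. Fgfr1 turned to -0.20 with the chromosome offset. Members near 0 changed sign. In IκBα-KO against IκBα-WT, Spry2 was -0.0018 with DESeq2 size factors, the DESeq2 Wald test and filterByExpr, -0.0081 with the block and -0.12 to 0.11 with 1 clone left out. Spry4 was -0.0054 with the block and -0.14 to 0.23 with 1 clone left out, and Egr1 -0.44 to 0.0495. At 96 hr against mESCs, with 1 library left out, Fgfr2 ran from -0.13 to 0.14 and Spry2 from -0.22 to 0.0893. For 96 hr EBs against 48 hr, leaving out 1 library gave 2 to 7 members called. Fgf4 lost its call with a filter of at least 1 count (adjusted p = 0.0878) and in the EB libraries alone without the code block, a fit chosen after seeing the data (adjusted p = 0.0995, 3 members called, with Fgfr1 also lost and Dusp4 gained). Adding the replicate block by clone code to those libraries brought back the calls of Fgf4 (adjusted p = 0.0188) and Fgfr1 (adjusted p = 0.0365), for 5 members called, and changed no other call of a member. The mean count of every member was 508 or more in every comparison.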

Other observations

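At 96 hr the EB libraries fell into separate ranges of Fgf4 and of primitive streak genes. Fgf4 was at 110.3, 93.7 and 92.3 CPM in codes D4, E2 and E3 and at 14.2, 23.8 and 13.5 CPM in E14, H7 and H9. T, the streak marker brachyury, was at 1.47, 0.99 and 0.73 CPM in D4, E2 and E3 and at 353, 269.9 and 511 CPM in E14, H7 and H9. Eomes was at 20.06, 20.04 and 12.6 CPM in D4, E2 and E3 and at 251, 263 and 236 CPM in E14, H7 and H9, and Fgf8 at 4.72, 5.52 and 6.17 CPM against 48.4, 65.8 and 90.6 CPM. Etv5 was at 481, 461 and 455 CPM in D4, E2 and E3 and at 258, 386 and 322 CPM in E14, H7 and H9. Dusp4 was at 55.5, 61.6 and 45.8 CPM in D4, E2 and E3 and at 149, 75.6 and 88.2 CPM in E14, H7 and H9. Dusp6 was at 85.5, 93.7 and 58.7 CPM in D4, E2 and E3 and at 126, 183 and 218 CPM in E14, H7 and H9. Fgfr2 was at 35.4, 32.0 and 26.5 CPM against 22.1, 12.6 and 13.6 CPM, and Fgfr1 at 136, 146 and 173 CPM against 181, 178 and 178 CPM, with a small gap. Spry2 overlapped, at 69.1, 67.5 and 44.0 CPM and at 69.1, 127 and 102.4 CPM. So did Spry4, at 107, 94.9 and 55.1 CPM and at 64.8, 83.0 and 61.6 CPM, as well as Etv4 and Egr1. The codes were grouped after the values were seen, and the share of all genes that separate this way was not counted. The codes carry no genotype in the labels, and no test was made between them.

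At 48 hr Egr1 was at 65.8 and 66.1 CPM in D4 and E2 and at 25.9, 30.7, 27.1 and 28.9 CPM in E14, E3, H7 and H9. At 96 hr the 6 codes lay between 28.1 and 44.2 CPM.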
